A study of Mus musculus with 8 samples.

Results

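Unc93b1 lies near the centromeric end of mouse chromosome 19, from 3935186 to 3949340 on GRCm38, and the genes described here are its neighbors. They are the protein-coding genes of chromosome 19 whose start, in the deposited tables, lies before a point 2 Mb beyond Unc93b1. Unc93b1 itself, Rela, Ctsw, Ndufv1 and Ndufs8 were left out. This gave 103 genes of the 26939 in the joined tables, of which 16305 are protein-coding, and 450 other protein-coding genes lay elsewhere on the chromosome. Apart from these 5 names, position and gene type decided which genes are included, and the rule uses no expression value. Of the 103, 12 lie on the centromeric side of Unc93b1 and 91 on the telomeric side. The deposited tables list only genes with at least 2 counts over the libraries of a table, so all 103 had counts. Of these, 82 passed the filter on low counts in the control comparison and 83 in the αMARCO comparison.

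The data are RNA-seq read counts of tumor-associated macrophages (TAMs), gated by viability, lack of Gr-1 and surface F4/80, CD11b and CD45, and taken at day 21 from tumors of EO771, a mouse mammary carcinoma line, grown in the mammary fat pad of female mice aged 8 to 14 weeks. Of 4 groups with 2 libraries each, the WT groups came from C57BL/6J mice and the other groups from homozygous Unc93b1 3d/3d mice. In each genotype 1 group was the control and the other received αMARCO, an antibody (rat IgG1, clone ED31) to the scavenger receptor MARCO, at 100 µg on days 3, 6, 9 and 12. The control is called untreated in the labels and PBS in the library names, while the protocol names an isotype control antibody, so the control injection is not settled. The genotype field of 3d/3d control replicate 2 reads 3d/4d although its title says 3d/3d. The study states that control samples were pooled from several mice. The p-values measure only the spread between these samples. The study states that the C57BL/6J mice were purchased and that the 3d/3d mice were a gift. The strain on which the 3d mice were kept, their number of backcrosses and whether WT mice were littermates are not given in the sources used here.

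UNC93B1 is a membrane protein of the endoplasmic reticulum that carries the nucleic acid sensors TLR3, TLR7 and TLR9 to endosomes. The 3d allele, made by chemical mutagenesis, is a single-base missense change that blocks signaling from these receptors, so the RNA level of Unc93b1 does not check the genotype labels. DNA next to a selected allele is inherited along with it until recombination separates them, and for this reason the neighbors of a mutated gene are a usual check when a mutant is compared with WT. In counts per gene, an effect of the 3d mutation and an effect of other DNA carried with it cannot be told apart. The comparison asked whether genes near Unc93b1 differed between genotypes more, or more often, than other genes, and whether the difference changed with distance from Unc93b1.

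Library totals ran from 15182618 to 26411936 counts, and 3 counts, taken as the floor, correspond to 0.114 to 0.198 CPM (counts scaled to library size with TMM factors). Floors cover counting error only. The 103 neighbors together took between 0.612% and 0.7% of the counts of a library, and 93 to 100 of them had a count in any 1 library. The macrophage and sort markers, Ptprc, Itgam and Adgre1 among them, summed to between 4935 and 6436 CPM in every library. In control they summed to 5482 and 5688 CPM in WT and 4935 and 5121 in 3d/3d. Of 8 tested there, 2 were called as higher in WT and 1 as lower, against 6.58% and 6.4% of all genes. Without treatment, Unc93b1 itself was at 848 and 965 CPM in WT TAMs against 539 and 660 in 3d/3d TAMs. By the rule given below for the neighbors it was called there (log2 fold change 0.58, standard error 0.12, edgeR adjusted p = 0.0125). With αMARCO it was at 749 and 707 CPM in WT against 557 and 640 in 3d/3d (log2 fold change 0.29, edgeR adjusted p = 0.71).

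Levels of the neighbors were compared with each other per gene length, as the mean of the deposited FPKM over the 8 libraries. Cfl1, the actin-severing protein cofilin, stood highest at 740.7 FPKM. It was followed by Tcirg1, a subunit of the vacuolar proton pump, at 187 FPKM and by Grk2, a kinase that desensitizes G protein-coupled receptors, at 113 FPKM. Rab1b, a GTPase of transport from the endoplasmic reticulum to the Golgi, was at 77.3, Banf1, a DNA-binding protein of chromatin and the nuclear envelope, at 71.6, Ehbp1l1, an adaptor of membrane traffic, at 67.1 and Aldh3b1, an aldehyde dehydrogenase, at 61.4 FPKM. The neighbors are short genes, with a median length of 2806 bases among those tested in control, against 4323 for all tested protein-coding genes and 3673 for all tested genes.

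In control TAMs, 8 of the 82 tested neighbors were called between WT and 3d/3d. A gene counts as called when its adjusted p (edgeR quasi-likelihood test) does not exceed 0.05 and its log2 fold change is 0.5 or more in size. Over all genes tested in this comparison 13.0% were called, so that the neighbors, at 9.76%, were not called more often than genes in general. Among the other protein-coding genes of chromosome 19, 44 of 346 tested were called. Of the neighbors called, 7 were higher in WT (Mrpl21, Tesmin, Gstp1, Tbc1d10c, Mrpl11, Banf1 and Cdc42ep2), or 8.54%, against 6.58% of all genes. Rhod was higher in 3d/3d, or 1.22% against 6.4% of all genes. The fold change is WT over 3d/3d throughout. The median log2 fold change was 0.15 over the neighbors and −0.00 over all genes, and the median of its size was 0.26 and 0.31. DESeq2 called 5 neighbors, Gstp1, Tbc1d10c, Rhod, Banf1 and Cdc42ep2, and 11.6% of all genes. Without WT control replicate 1 or without 3d/3d control replicate 1 edgeR called fewer neighbors, and the share of all genes is not given for these fits. Of the 8, Rhod and Tbc1d10c were called without each of the 4 control libraries in turn, and in 1 model of all 8 libraries Rhod alone was called, against 2.19% of all genes.

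**Figure D1:**
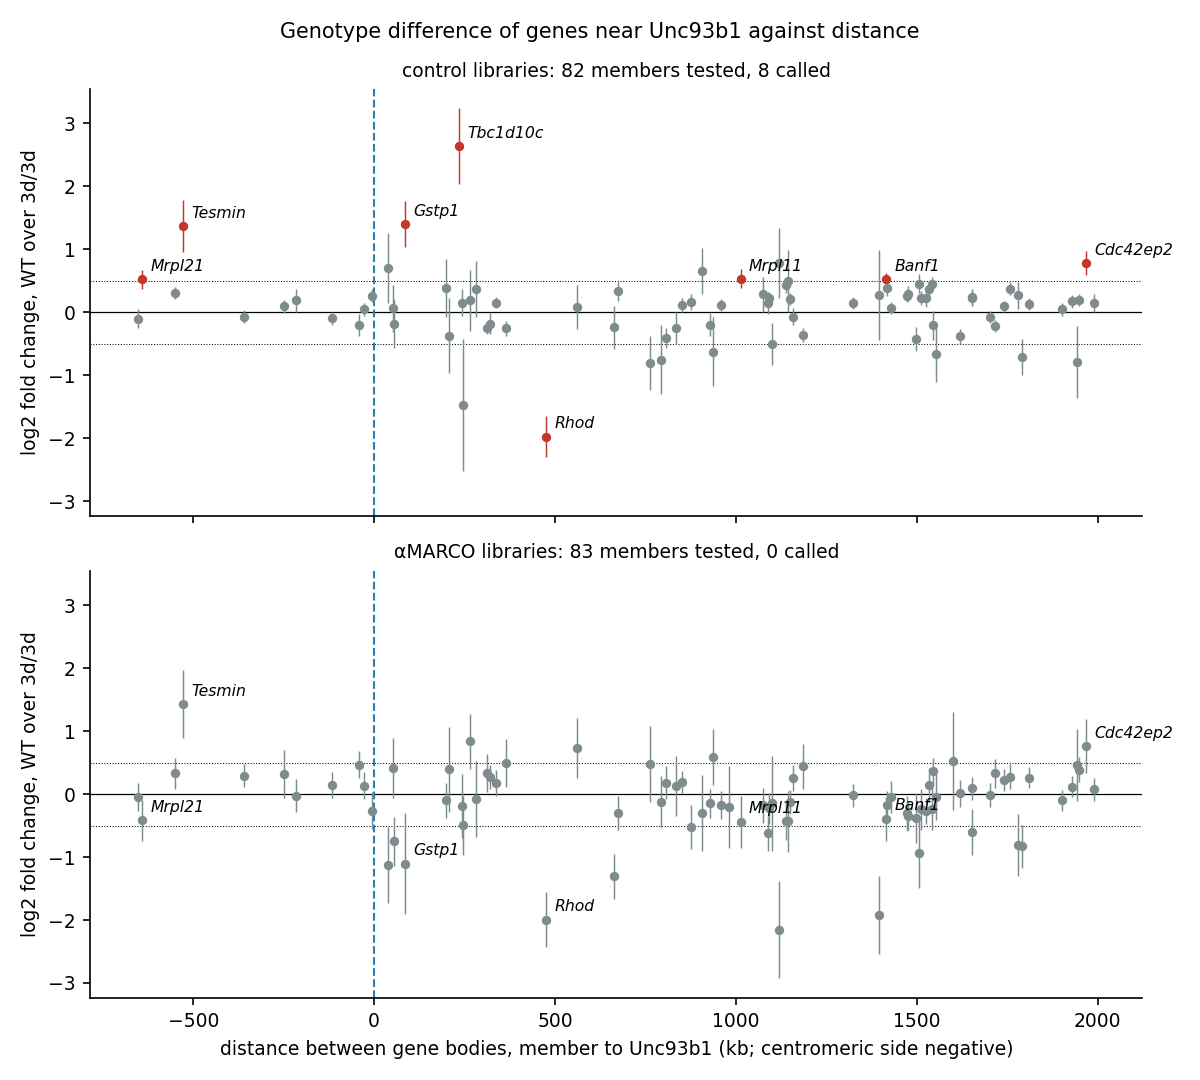
Log2 fold change of WT over 3d/3d (y axis) against the distance in kb between each tested neighbor and Unc93b1 (x axis, centromeric side negative), in control libraries above and αMARCO libraries below. Bars are standard errors, red points are called genes, dotted lines mark a log2 fold change of 0.5 in either direction and the dashed line marks Unc93b1. Rhod sits near −2 in both panels, while Gstp1 lies above 0 in control and below 0 under αMARCO.

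The promoter windows of Mrpl21, Tesmin, Mrpl11, Banf1, Gstp1 and Cdc42ep2, each called as higher in WT control, are printed. A window runs from 250 bases before to 50 after the gene start (RefSeq, GRCm38.p6). No window was available for Tbc1d10c, which was also called as higher. The capitals mark matches on either strand to CCAAT, to the ETS-type motif CCGGAAG, to the AP-1 type motif TGANTCA or to the antioxidant response type motif TGACNNNGC, and matches to different motifs may overlap.
Mrpl21 (chr19:3282792-3283091, plus strand): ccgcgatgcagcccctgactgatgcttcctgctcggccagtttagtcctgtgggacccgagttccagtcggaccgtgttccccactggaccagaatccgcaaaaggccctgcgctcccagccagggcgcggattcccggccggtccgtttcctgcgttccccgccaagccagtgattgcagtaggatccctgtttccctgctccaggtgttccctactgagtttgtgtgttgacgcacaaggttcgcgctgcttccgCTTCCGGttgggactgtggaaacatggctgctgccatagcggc
Tesmin (chr19:3388607-3388906, plus strand): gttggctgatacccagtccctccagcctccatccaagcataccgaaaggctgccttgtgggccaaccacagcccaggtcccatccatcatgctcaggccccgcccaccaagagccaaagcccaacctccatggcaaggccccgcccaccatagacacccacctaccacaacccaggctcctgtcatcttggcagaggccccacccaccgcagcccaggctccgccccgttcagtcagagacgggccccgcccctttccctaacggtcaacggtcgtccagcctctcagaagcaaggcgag
Mrpl11 (chr19:4962056-4962355, plus strand): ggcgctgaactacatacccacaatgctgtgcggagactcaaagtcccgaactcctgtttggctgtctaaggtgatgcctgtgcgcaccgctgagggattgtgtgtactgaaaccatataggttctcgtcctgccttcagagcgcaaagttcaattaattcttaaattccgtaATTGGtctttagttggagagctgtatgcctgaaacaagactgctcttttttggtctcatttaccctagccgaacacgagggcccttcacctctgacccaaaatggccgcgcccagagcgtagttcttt
Banf1 (chr19:5366827-5367126, minus strand): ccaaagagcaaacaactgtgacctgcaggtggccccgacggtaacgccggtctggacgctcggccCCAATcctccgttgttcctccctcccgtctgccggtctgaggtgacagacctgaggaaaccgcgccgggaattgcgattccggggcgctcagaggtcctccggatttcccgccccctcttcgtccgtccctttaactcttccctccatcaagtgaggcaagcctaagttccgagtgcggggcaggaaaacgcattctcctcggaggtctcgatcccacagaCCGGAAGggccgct
Gstp1 (chr19:4037863-4038162, minus strand): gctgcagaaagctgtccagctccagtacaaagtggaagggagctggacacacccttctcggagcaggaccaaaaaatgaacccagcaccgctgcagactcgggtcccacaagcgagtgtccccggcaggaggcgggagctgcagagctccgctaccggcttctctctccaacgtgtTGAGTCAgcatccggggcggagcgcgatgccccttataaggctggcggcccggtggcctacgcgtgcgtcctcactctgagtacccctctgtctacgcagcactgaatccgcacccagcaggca
Cdc42ep2 (chr19:5924767-5925066, minus strand): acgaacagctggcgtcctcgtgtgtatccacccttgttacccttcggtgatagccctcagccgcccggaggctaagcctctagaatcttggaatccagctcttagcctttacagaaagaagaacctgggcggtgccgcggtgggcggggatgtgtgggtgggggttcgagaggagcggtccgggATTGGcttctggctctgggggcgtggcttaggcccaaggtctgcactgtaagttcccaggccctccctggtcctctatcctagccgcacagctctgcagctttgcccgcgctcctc

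The window of Mrpl21 held CCGGAAG and that of Banf1 held CCGGAAG and CCAAT. By the deposited positions, the window of Banf1 lies outside Banf1 and inside Eif1ad, a gene of the opposite strand. That of Mrpl21 overlaps Ighmbp2, also of the opposite strand. The windows of Mrpl11 and Cdc42ep2 held CCAAT, that of Gstp1 held TGANTCA, and that of Tesmin held none of them. Of 73 neighbors with a window, 20.5% held CCGGAAG, against 8.9% of all 32851 windows, and 50.7% held CCAAT, against 37.4%. For TGANTCA it was 4.1% against 7.8% and for TGACNNNGC 15.1% against 12.4%. The windows of the neighbors were rich in G and C, with a median of 61.3% against 52.7% in all windows. A match is a description of letters and not a binding site.

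In control TAMs the size of the genotype difference was almost unrelated in rank to the distance from Unc93b1. Distance is the gap between the bodies of the genes. Within 250 kb of Unc93b1, 2 of 15 tested neighbors were called, and between 250 and 500 kb 1 of 8 was called. From 500 to 1000 kb it was 2 of 17, from 1000 to 1500 kb 2 of 19 and from 1500 to 2000 kb 1 of 23. Farther along the chromosome, 4 of 60 tested protein-coding genes were called between 2 and 5 Mb, 8 of 54 between 5 and 10 Mb, 2 of 26 between 10 and 20 Mb, 15 of 107 between 20 and 40 Mb and 15 of 99 beyond 40 Mb. The median size of the log2 fold change was 0.20 within 250 kb, 0.31 from 500 to 1000 kb and 0.27 beyond 40 Mb. Across the 82 tested neighbors, Spearman's rho of the size of the log2 fold change with distance was 0.013. These genes share the same 4 libraries and are not independent, so rho is given as a description. At the edge of the region, Cdc42ep2 and Pola2, the last genes inside it, had log2 fold changes of 0.78 and 0.15 in control, and Capn1 and Syvn1, the first tested outside it, 0.01 and −0.12.

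**Figure D2:**
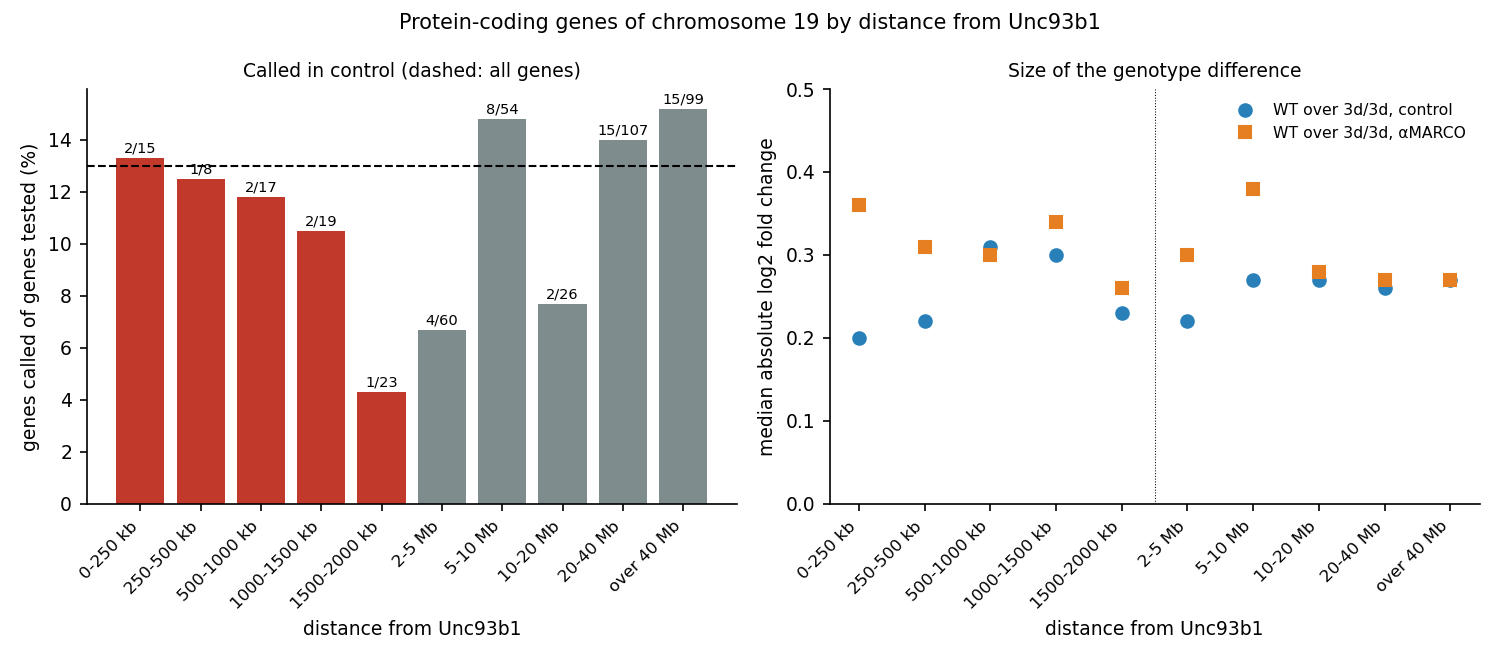
Protein-coding genes of chromosome 19 by distance from Unc93b1 (x axis). Left, percentage of tested genes called between WT and 3d/3d in control, with the number called and tested above each bar, the neighbors in red, the rest of the chromosome in gray and the 13.0% of all genes as a dashed line. Right, median absolute log2 fold change in control (circles) and αMARCO (squares). The bins within 1000 kb lie between 11.8% and 13.3% called, and the bin beyond 40 Mb at 15.2%.

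Among the neighbors tested in both genotype comparisons, Rhod had the largest difference by the smaller of its log2 fold changes. Rhod (ENSMUSG00000041845, chromosome 19, 4425459 to 4439432, minus strand) encodes a small GTPase of early endosomes and the plasma membrane that acts on actin and endosome movement. It lies 476 kb from Unc93b1 on the telomeric side. In CPM it was at 1.42 and 1.44 in WT control and 6.53 and 4.67 in 3d/3d control, from 27, 26, 104 and 92 counts. Under αMARCO it was at 1.504 and 2.04 in WT and 5.10 and 9.18 in 3d/3d, from 31, 53, 113 and 135 counts. Each of the 4 3d/3d libraries lay above each of the 4 WT libraries.

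In control the mean of Rhod was 1.43 ± 0.014 CPM in WT and 5.60 ± 1.32 CPM in 3d/3d (SD, n = 2 each), and the log2 fold change was −1.98 (standard error 0.33, edgeR adjusted p = 0.00461), which is 3.93-fold lower in WT. It was called under all 10 alternatives run for this comparison, with adjusted p between 1.87e-06 and 0.0496. Under αMARCO, in libraries that the control comparison does not use, the means were 1.77 ± 0.382 and 7.14 ± 2.88 CPM (SD, n = 2 each) and the log2 fold change was −1.99 (standard error 0.44). There the edgeR adjusted p was 0.472 and the unadjusted p 0.00616, and DESeq2 gave an adjusted p of 0.0307. The difference between both log2 fold changes was −0.03 (edgeR adjusted p = 0.981). When genotype was averaged over both treatments in 1 model of all 8 libraries, which was added after seeing the data, Rhod was called (log2 fold change −1.98, standard error 0.28, edgeR adjusted p = 0.00869). Leaving out WT control replicate 1, WT control replicate 2, 3d/3d control replicate 1 or WT αMARCO replicate 1 from that model moved its adjusted p to between 0.0504 and 0.0595.

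Of the listed neighbors of Rhod on either side, Kdm2a alone was tested. Kdm2a, a histone H3 lysine demethylase on the side of Unc93b1, had log2 fold changes of −0.26 in control (edgeR adjusted p = 0.154) and 0.50 under αMARCO (edgeR adjusted p = 0.714). Syt12, of the synaptotagmin family of vesicle proteins, had at most 3 counts in any library and was not tested. Rhod overlaps A930001C03Rik on the opposite strand, and since the strand setting of the counting is not given in the sources used here, reads of both cannot be told apart by strand. A930001C03Rik was at or below 0.316 CPM in all 8 libraries.

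**Figure D3:**
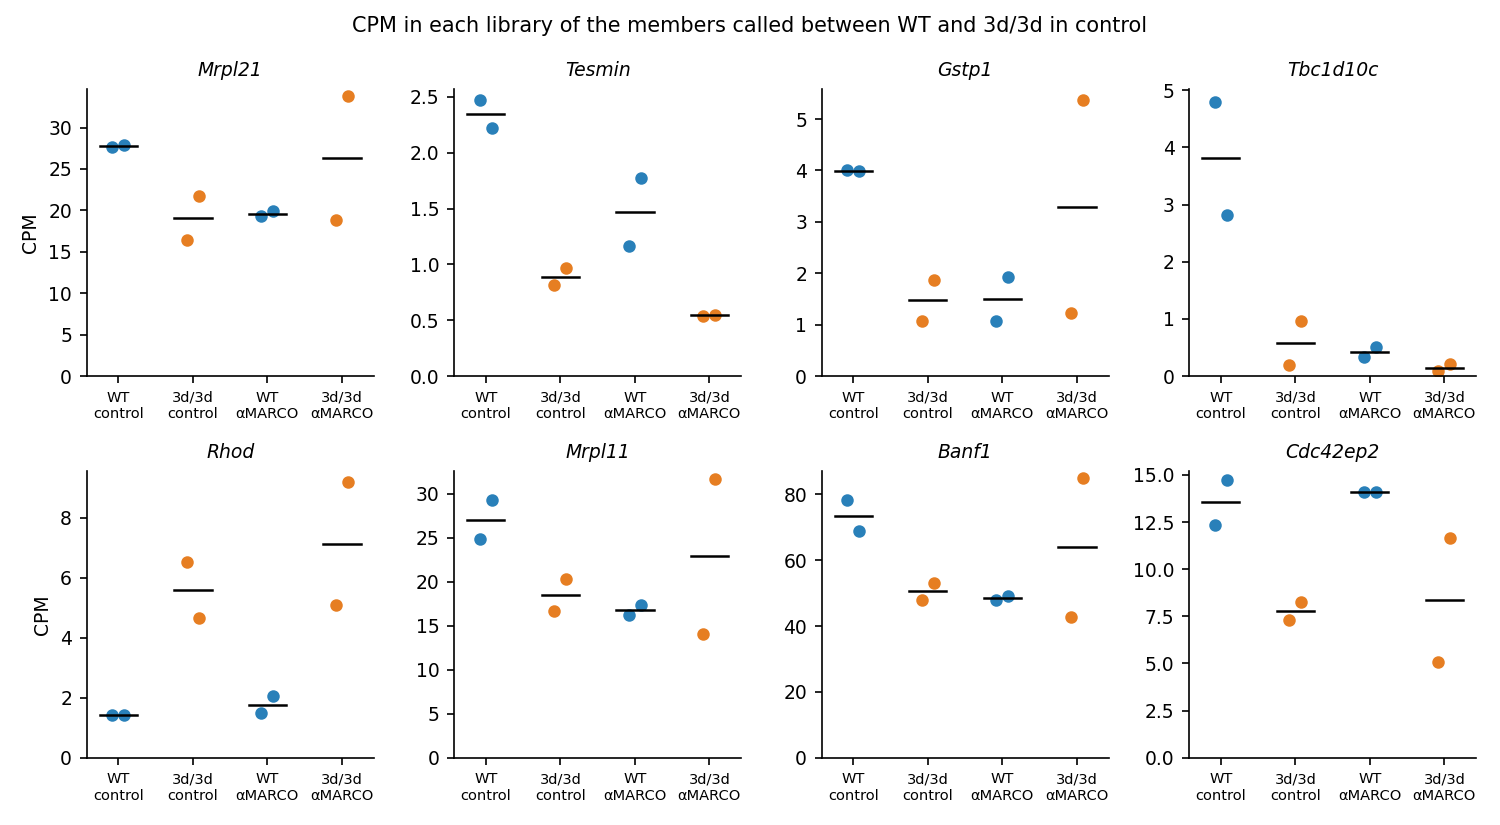
CPM (y axis, from 0) of the 8 neighbors called in control, with a point for each library, WT in blue and 3d/3d in orange, and a line at the mean of each group of 2. For Rhod, all 3d/3d points, from 4.67 to 9.18 CPM, lie above all WT points, from 1.42 to 2.04 CPM. For Gstp1, Mrpl21, Mrpl11 and Banf1 the points of 3d/3d αMARCO lie far apart.

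Among the neighbors that act on the cytoskeleton and membrane traffic, 16 of 18 were tested in control, and 2 of these 16 were called, against 13.0% of all genes. Rhod was higher in 3d/3d and Cdc42ep2 in WT. Cdc42ep2 (ENSMUSG00000045664) encodes an effector that binds the GTPase CDC42 and acts on actin-based cell shape. It lies 1968 kb from Unc93b1, at 5917556 to 5924816. It was at 12.4 and 14.7 CPM in WT control and 7.28 and 8.27 in 3d/3d control, and at 14.1 in both WT αMARCO libraries and 5.10 and 11.6 in 3d/3d αMARCO. The WT libraries were above the 3d/3d libraries in both treatments. The log2 fold change was 0.78 in control (standard error 0.20, edgeR adjusted p = 0.0238) and 0.77 under αMARCO (standard error 0.43, edgeR adjusted p = 0.709). As each library was left out, the αMARCO value ran from 0.29 without 3d/3d replicate 1 to 1.47 without 3d/3d replicate 2, where it was called, and in control Cdc42ep2 was not called without WT replicate 2 or without 3d/3d replicate 1. Cfl1 was at 2089 and 2033 CPM in WT control and 1383 and 1604 in 3d/3d control. Its log2 fold change of 0.45 (edgeR adjusted p = 0.0231) was under the fold change limit. Under αMARCO it was at 1487 and 1701 CPM in WT and 1361 and 2386 in 3d/3d, and the groups overlapped.

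Ehbp1l1, at 474 and 480 CPM in WT control and 340 and 388 in 3d/3d control, had a log2 fold change of 0.37 (edgeR adjusted p = 0.0315), also under the limit. Coro1b, an actin-binding coronin 199 kb from Unc93b1, ranged from 15.6 to 37.4 CPM over the 4 control libraries, and its groups overlapped (log2 fold change 0.38, edgeR adjusted p = 0.638).

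Of the 7 neighbors of the RNA processing and translation group, all tested, 2 were called as higher in WT control, against 6.58% of all genes. These were Mrpl21 and Mrpl11, which encode proteins of the large subunit of the mitochondrial ribosome. Mrpl21, 642 kb to the centromeric side, was at 27.7 and 27.9 CPM in WT and 16.4 and 21.7 in 3d/3d control (log2 fold change 0.53, standard error 0.15, edgeR adjusted p = 0.0419). Mrpl11, 1013 kb to the telomeric side, was at 24.8 and 29.3 CPM in WT and 16.7 and 20.3 in 3d/3d control (log2 fold change 0.53, standard error 0.15, edgeR adjusted p = 0.0387). Under αMARCO both had negative log2 fold changes, −0.42 and −0.44, and neither was called. There 3d/3d replicate 2 held the highest value of both, 33.8 CPM for Mrpl21 and 31.8 for Mrpl11, while 3d/3d replicate 1 held the lowest, 18.8 and 14.1.

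Of the group of DNA repair, replication, chromatin and transcription factors, 15 of 18 were tested in control. Of these 15, 1 was called, Banf1, against 13.0% of all genes. Banf1 was at 78.2 and 68.7 CPM in WT and 47.9 and 53.2 in 3d/3d control, with a log2 fold change of 0.52 (standard error 0.11, edgeR adjusted p = 0.0108). Under αMARCO it was at 48.0 and 49.2 in WT and 42.7 and 85.1 in 3d/3d (log2 fold change −0.39, edgeR adjusted p = 0.73). The WT values then lay between the 3d/3d values.

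Of the enzymes, carriers and the proton pump, 14 of 19 were tested in control and 1 of these 14, Gstp1, was called, against 13.0% of all genes. Gstp1 (ENSMUSG00000060803), a glutathione transferase, is the called neighbor nearest to Unc93b1, at a distance of 86.1 kb. In control it was at 4.00 and 3.99 CPM in WT, above the 1.07 and 1.88 of 3d/3d. Under αMARCO the 1.07 and 1.93 of WT overlapped the 1.22 and 5.37 of 3d/3d. The log2 fold change was 1.41 in control (standard error 0.37, edgeR adjusted p = 0.0282) and −1.11 under αMARCO (standard error 0.80, edgeR adjusted p = 0.709). The family copy Gstp2 had 2 counts in all libraries together. Reference transcripts of Gstp1 and Gstp2 were 95.7% identical over 786 aligned bases, so the split of reads between both is uncertain.

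Outside the role groups, 12 neighbors were tested in control and 2 were called, Tesmin and Tbc1d10c, against 13.0% of all genes. Tesmin is also called Mtl5 and is known for its role in the male germ line. Tesmin, 527 kb to the centromeric side, was at 2.47 and 2.22 CPM in WT control and 0.816 and 0.964 in 3d/3d control, and at 1.17 and 1.77 in WT αMARCO and 0.542 and 0.544 in 3d/3d αMARCO. WT lay above 3d/3d in both treatments, by a log2 fold change of 1.37 (standard error 0.42, edgeR adjusted p = 0.0495) and 1.43 (standard error 0.54, edgeR adjusted p = 0.709). It rested on 8 to 47 counts a library. DESeq2 did not call it in control, with an adjusted p of 0.143.

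Tbc1d10c, or carabin, 235 kb from Unc93b1, is a GTPase-activating protein known from lymphocytes. It was at 4.79 and 2.83 CPM in WT control and 0.188 and 0.964 in 3d/3d control (log2 fold change 2.64, standard error 0.60, edgeR adjusted p = 0.019). This value ran from 1.96 to 4.27 as each library was left out. Under αMARCO it was at 0.34 and 0.501 in WT and 0.0903 and 0.204 in 3d/3d, from 7, 13, 2 and 3 counts, and was not tested. In control, markers of several other cell types were also higher in WT. The summed fibroblast markers were lower there, at 107 and 84.9 CPM against 175 and 151 in 3d/3d. Of all genes, 6.58% were called as higher in WT control. All 16 of the T cell list were called as higher in WT control, and their summed level there was 171 and 192 CPM, against 37.8 and 18.8 for 3d/3d. Under αMARCO the sum was 17.6 and 28.3 CPM for WT against 12.5 and 13.3 for 3d/3d. None of the 16 was at 0 in all libraries. Cd3e, a defining subunit of the T cell receptor complex, was at 4.58 and 8.81 CPM in WT control and 1.57 and 0.457 in 3d/3d control. In control the B cell markers summed to 111 and 160 CPM in WT against 27.6 and 26.3 in 3d/3d, with 2 of 4 tested called as higher in WT. The NK cell markers summed to 162 and 136 CPM against 68.2 and 44.0, with 2 of 9 called, and those of mature dendritic cells to 879 and 447 CPM against 120 and 89.1, with 3 of 7 called. Under αMARCO the B cell sums were 75.5 and 81.3 CPM in WT against 36.4 and 51.9 in 3d/3d. The NK cell sums there were 48.5 and 57.5 CPM against 48.8 and 66.2. Those of mature dendritic cells were 66.3 and 86.6 CPM against 92.6 and 71.9, so neither was higher in WT. The part of these cell types in the difference of Tbc1d10c was not tested. In sorted bulk samples, fewer cells of a type and less RNA per cell cannot be told apart. Ptprcap, a lymphocyte gene 205 kb from Unc93b1, had 0 to 6 counts in each library and was not tested.

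Of the 6 tested genes nearest to Unc93b1 on each side, Gstp1 alone was called in control, where 13.0% of all genes were called. On the centromeric side these were Aldh3b1 at 5.4 kb (log2 fold change 0.26, edgeR adjusted p = 0.12), Tcirg1 at 28.1 kb (0.05), the choline kinase gene Chka at 40.8 kb (−0.20), the histone H4 methyltransferase gene Kmt5b at 117 kb (−0.10), 1810055G02Rik at 217 kb (0.19) and the Wnt co-receptor gene Lrp5 at 249 kb (0.09). None was called in control, where the adjusted p of the last 5 ran from 0.474 to 0.804. Under αMARCO their log2 fold changes were −0.26, 0.13, 0.46, 0.15, −0.02 and 0.32, and none was called. Tcirg1, the most abundant of them, was at 727 and 839 CPM in WT control and 741 and 760 in 3d/3d control, and the groups overlapped.

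On the telomeric side the nearest tested genes were Acy3, an aminoacylase, at 37.3 kb, Nudt8, a nudix hydrolase, at 51.3 kb, Doc2g, a C2 domain protein, at 54.0 kb, Gstp1, Coro1b, and the ribosomal S6 kinase gene Rps6kb2 at 207 kb. The log2 fold changes in control were 0.70 for Acy3 (0.17 to 1.65 as each library was left out), 0.06 for Nudt8, −0.18 for Doc2g and −0.37 for Rps6kb2, with standard errors between 0.37 and 0.59, and all were below 12 CPM in every control library. Under αMARCO they were −1.13, 0.42, −0.75 and 0.40. The tables hold 2 entries named Nudt8, and the values are those of ENSMUSG00000024869.

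None of the 11 tested neighbors of the kinase, phosphatase and signaling group was called in control, against 13.0% of all genes. Grk2, the most abundant, was at 489 and 494 CPM in WT and 432 and 442 in 3d/3d control, and at 609.8 and 562 in WT αMARCO and 488 and 551 in 3d/3d αMARCO. WT was above 3d/3d in both, with log2 fold changes of 0.15 and 0.18 that were not called. Of the receptors, channels, secreted and matrix proteins, 7 of 10 were tested in each genotype comparison and none was called in either. Of all genes, 13.0% were called in control and 0.0% under αMARCO.

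Under αMARCO, 0 of the 83 tested neighbors were called by edgeR, as were 0.0% of the 15722 genes tested. At an unadjusted p of at most 0.05 there were 5 neighbors (Tesmin, Rhod, Lrfn4, Cd248 and Cst6), or 6.02%, against 6.84% of all genes. DESeq2 called Rhod alone among the neighbors and 1.36% of all genes. The median log2 fold change was −0.04 over the neighbors and −0.03 over all genes, and the median of its size was 0.30 and 0.33. Spearman's rho of the size with distance was −0.125 over 83 neighbors and −0.259 with no filter beyond 1 count, and the median size was 0.36 within 250 kb, 0.26 from 1500 to 2000 kb and 0.27 beyond 40 Mb. Without 3d/3d αMARCO replicate 2, 9 neighbors were called, against 7.45% of all genes, and rho was −0.17. Without 3d/3d αMARCO replicate 1, 31 were called, against 38.6% of all genes, and rho was −0.343, so the count rests on which of these libraries is kept.

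The 3d/3d αMARCO libraries differed from each other more than the libraries of any other group. Over 81 neighbors tested in both comparisons the median difference between replicates, on log2(CPM + 0.5), was 0.53 in 3d/3d αMARCO, against 0.11 in WT αMARCO, 0.13 in WT control and 0.17 in 3d/3d control. It exceeded 1 in 14 of the neighbors there and in 1 or 2 in each other group. Over all 14985 genes tested in both, the median was 0.47 in 3d/3d αMARCO. Across the 81 neighbors this difference, replicate 2 minus replicate 1, had a Spearman's rho with gene length of −0.588, as short genes were higher and long genes lower in replicate 2. In the other groups it was 0.284 in WT control, −0.225 in 3d/3d control and −0.279 in WT αMARCO. The genotype log2 fold change also went with length, with rho of −0.452 in control and 0.513 under αMARCO over the neighbors, and −0.165 and 0.186 over all genes. Without 3d/3d αMARCO replicate 2 the αMARCO value was −0.023, while in control it ran from −0.48 to −0.387 as each library was left out. The part of length in the genotype differences was not tested.

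**Figure D4:**
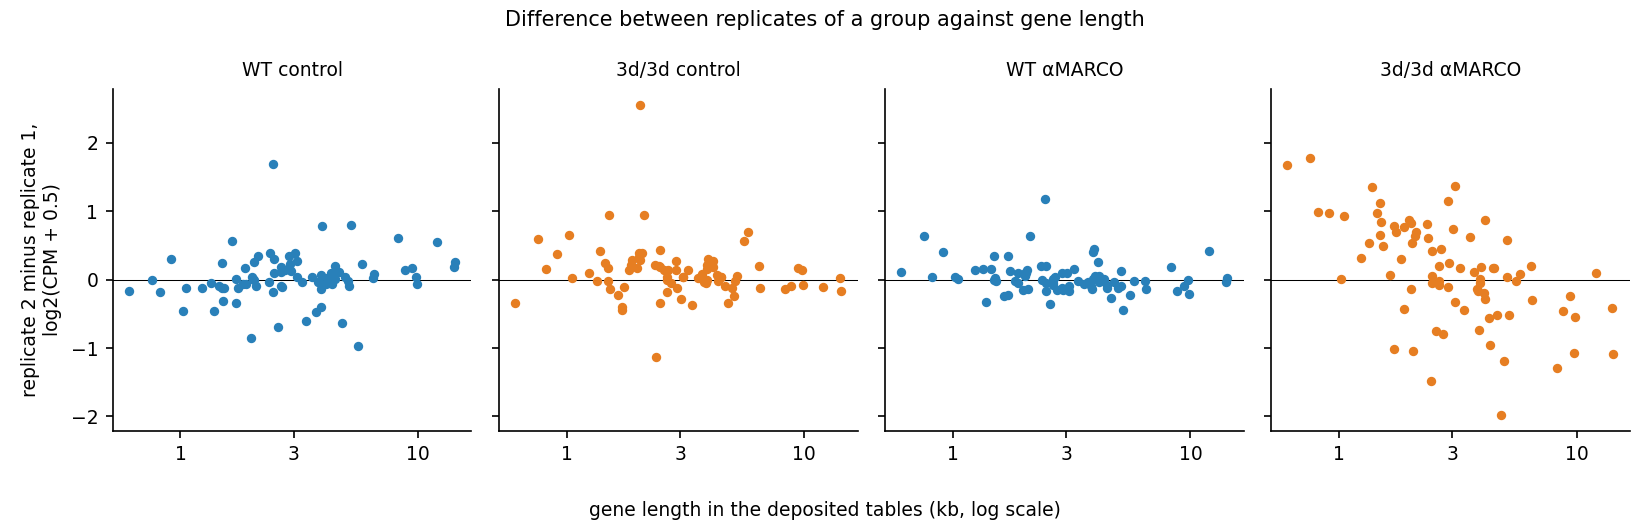
Difference between the libraries of each group, replicate 2 minus replicate 1 on the log2(CPM + 0.5) scale (y axis), against gene length in kb (x axis, log scale), for the 81 neighbors tested in both genotype comparisons. In 3d/3d αMARCO the points fall from above 1 for the shortest genes to below −1 for several long ones, with rho of −0.588. In the other groups rho was between −0.279 and 0.284 and most points lie near 0.

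The control and αMARCO comparisons share no library, so a neighbor that differed the same way in both was measured anew. The groups did not overlap and pointed the same way in both comparisons for 12 of 81 neighbors, or 14.8%, against 13.7% of all genes. In opposite directions it was 8 neighbors, or 9.88%, against 14.3%. The neighbors higher in WT both times numbered 10, against 7.49% of all genes, and included Cpt1a, Tesmin, Grk2, Rbm14, Map3k11, Ehbp1l1, Slc25a45, Dpf2 and Cdc42ep2. Those lower in WT, against 6.19% of all genes, were Rhod and Ltbp3, which encodes a binding protein of latent TGF-β. Of the 12, Rhod and Tesmin alone had a log2 fold change of at least 1 in size both times, which is 2.47% of the 81 neighbors, against 2.07% of all genes held to the same limits. Called by edgeR the same way in both were 0 neighbors and 0.0% of all genes. The sign of the log2 fold change was the same in 30 of 81 neighbors, or 37.0%, and in 42.3% of all genes, and Spearman's rho between both comparisons was −0.323 over the neighbors and −0.1 over all genes.

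**Figure D5:**
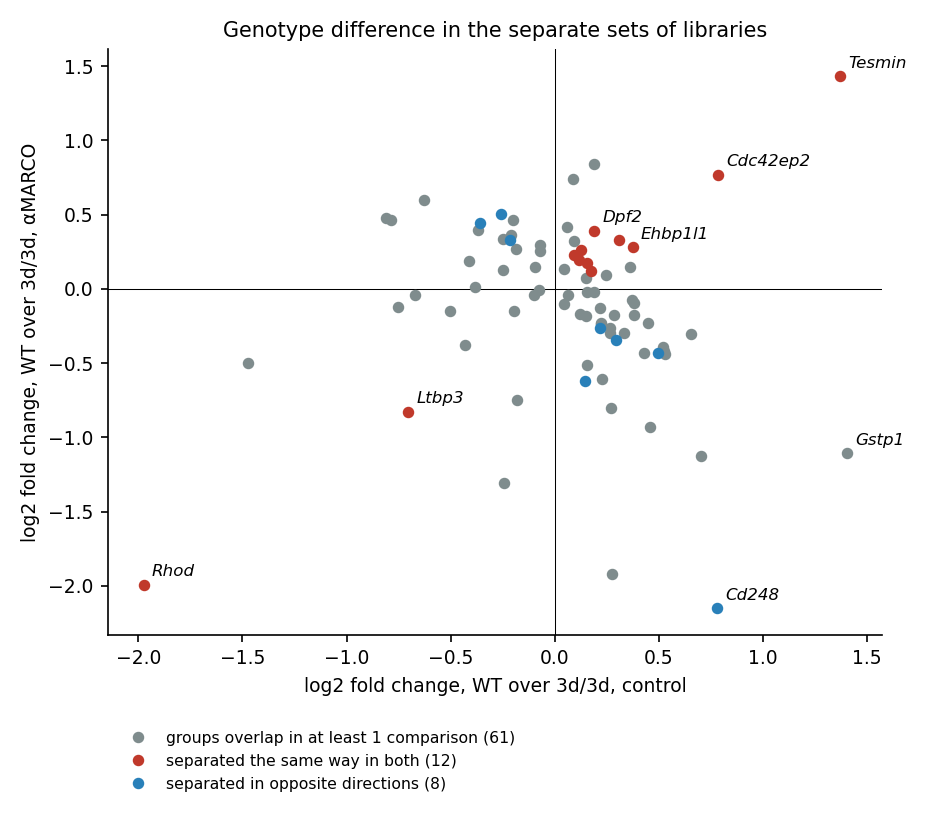
Log2 fold change of WT over 3d/3d in αMARCO libraries (y axis) against that in control libraries (x axis) for the 81 neighbors tested in both. The 12 red points are neighbors whose groups did not overlap and pointed the same way both times, the 8 blue points those that pointed in opposite directions, and the gray points the rest. Rhod lies at −1.98 and −1.99 and Tesmin at 1.37 and 1.43, and the remaining red points are within 1 of 0 on both axes.

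For most of the 12, the difference was small. Cpt1a, the carnitine palmitoyltransferase of mitochondrial fatty acid import, was at 120 and 128 CPM in WT control and 96.6 and 101 in 3d/3d control (log2 fold change 0.31), and at 89.6 and 88.3 in WT αMARCO and 84.6 and 57.0 in 3d/3d αMARCO (0.33). Dpf2, a subunit of BAF chromatin remodeling complexes, had log2 fold changes of 0.19 and 0.39, and Ltbp3 of −0.71 and −0.83. Averaged over both treatments, Cpt1a, Dpf2, Ehbp1l1, Cdc42ep2 and Ltbp3 had edgeR adjusted p between 0.157 and 0.299, and Rhod was the only neighbor called, or 1.19% against 3.08% of all genes. Tesmin had an averaged log2 fold change of 1.41 (edgeR adjusted p = 0.0549) and was called by DESeq2, as were Tbc1d10c and Rhod, against 5.82% of all genes.

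Over all tested neighbors, more lay higher in WT than in 3d/3d control. The groups did not overlap in 54 of 82, or 65.9%, against 63.1% of all genes, with WT higher in 41 and lower in 13. The share with WT higher was 50.0%, against 33.2% of all genes, and the share with WT lower was 15.9%, against 29.9%. All neighbors are protein-coding, while all genes include other types. The log2 fold change in control was positive in 64.6% of the neighbors, 52.6% of all tested protein-coding genes and 49.7% of all genes. Under αMARCO the groups did not overlap in 37 of 83, with WT higher in 22, or 26.5%, against 22.1% of all genes, and lower in 15, or 18.1%, against 22.2%. The rho of the log2 fold change with length is given above.

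Across treatment, αMARCO over control, 15 of 81 tested neighbors were called in WT TAMs, or 18.5%, against 20.7% of all genes. With αMARCO 3 were higher, Ankrd13d and Rbm4b among them, against 8.91% of all genes, and 12 were lower, against 11.8% of all genes. Rbm4b, an RNA-binding splicing regulator, was at 12.4 and 11.9 CPM in WT control and 27.2 and 23.5 in WT αMARCO (log2 fold change 1.06). Ctsf, a lysosomal cysteine protease, was at 5.68 and 2.94 CPM in WT control and 1.17 and 1.003 in WT αMARCO, and Cd248, a stromal cell surface glycoprotein, at 1.74 and 0.887 and at 0.34 and 0.154. The summed fibroblast markers were at 107 and 84.9 CPM in WT control and 38.2 and 24.4 in WT αMARCO, and their part in the difference of Cd248 was not tested. Banf1, Mrpl11, Gstp1 and Tbc1d10c, which were higher in WT control than in 3d/3d control, were also among the 12, and the WT control libraries enter both comparisons. Rhod had log2 fold changes of 0.32 in WT and 0.36 in 3d/3d for αMARCO over control and was called in neither. In 3d/3d TAMs 0 of 83 tested neighbors were called, as were 0.0% of all genes by edgeR and 0.389% by DESeq2. At an unadjusted p of at most 0.05 these were 2 neighbors, Doc2g and Sssca1, and 4.82% of all genes. In 1 model of all 8 libraries 0 neighbors were called across treatment in WT, against 0.987% of all genes.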

How the data were processed

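Per the labels and the study's methods, read cleaning by the authors used fastp, alignment to GRCm38 used HISAT2 2.0.5 and counting used featureCounts 1.5.0. The authors deposited raw counts per gene, FPKM, normalized counts and their own DESeq2 1.40.2 results in 3 tables. The strand setting and the annotation release are not given in the sources used here. The deposited FPKM, the authors' counts per length and library total, served to compare levels between genes. The 12 columns of normalized counts per library and the authors' fold changes and p-values were not used.

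The raw counts were joined by gene identifier. Of 95230 counts present in more than 1 table, 0 differed, and a gene missing from a table, which had at most 1 count where this could be checked, was set to 0. Of the neighbors, 38 overlap another listed gene.

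Counts were tested with edgeR 4.0.16 in R 4.3.3 (filterByExpr, TMM, robust quasi-likelihood test, Benjamini-Hochberg adjustment over all genes tested) within the 4 libraries of each comparison, and in 1 model of all 8 libraries for the difference between treatments. DESeq2 1.42.0, DESeq2's size factors, other filters and fold limits, a replicate block and each library left out were alternatives. In a fit without a library, the lone sample was assumed to vary like the other group. In simulated control libraries, edgeR recovered 67 of 100 genes changed by a log2 fold change of 1 and 83 of 100 changed by 2. In simulated αMARCO libraries it recovered 3 and 55 of 100. Genes that were not changed were also called, 18 in simulated control and 10 in simulated αMARCO libraries. In each simulation 200 genes were changed and genes were drawn independently. In the real control comparison 13.0% of all genes were called. The recovery rates therefore do not give the share of real changes that was found.

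The genes named are the neighbors called in a genotype comparison or for the difference between treatments, the 6 tested on each side nearest Unc93b1, the 4 with the highest mean CPM, Ptprcap and the Gstp copies. Others were named after their values were seen. The members and lists were chosen with earlier results of these data known. Some neighbors are counted but not reported by name here.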

Additional observations from a re-analysis of the deposited data

Results flagged for a closer look

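For 8 neighbors the WT and 3d/3d libraries did not overlap in either treatment but pointed in opposite directions, which happened in 9.88% of the 81 neighbors tested in both comparisons and in 14.3% of all genes. The difference between both log2 fold changes (WT over 3d/3d, αMARCO minus control, in 1 model of all 8 libraries) was −2.96 for Cd248, −0.95 for Cnih2, −0.78 for B4gat1, −0.66 for AI837181 and −0.50 for Efemp2. These 5 were higher in WT control than in 3d/3d control and lower in WT under αMARCO. It was 0.78 for Pacs1, 0.74 for Kdm2a and 0.53 for Pcnx3, which went the other way. None passed the test of that difference, with edgeR adjusted p between 0.318 and 0.434, and 0 of 84 neighbors and 0 of 16620 genes did, while 8 neighbors and 2549 genes had an unadjusted p of at most 0.05. DESeq2 called 0 neighbors and 211 genes for it. Without 3d/3d αMARCO replicate 1 the edgeR count was 34 of 88 neighbors, or 38.6%, against 36.4% of all genes. Cd248 was at 1.49 and 0.68 CPM in 3d/3d αMARCO and 0.34 and 0.154 in WT αMARCO, where the fibroblast markers summed to 162 and 77.3 CPM and to 38.2 and 24.4 CPM. In control, where Cd248 was higher in WT, they were lower in WT, at 107 and 84.9 CPM against 175 and 151 in 3d/3d. Their part in it was not tested.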

How the results depend on the processing

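With 2 libraries in a group, 1 library can decide a count of calls. Calls over all genes also change with the setting. A count with no share of all genes, here or above, is not a result about the neighbors. In control the 8 called neighbors became 5 with DESeq2, 1 in a model of all 8 libraries, 13 without a fold limit (18.8% of all genes) and 4 with a limit of 1, and 5 to 8 as each library was left out. Within 500 kb the 3 calls became 1 in the model of all 8 libraries and 3 to 4 with a library left out. Under αMARCO the 0 calls became 1 with DESeq2 and 0 to 31 with a library left out (38.6% of all genes at 31), and within 500 kb 1 and 0 to 9. Called the same way in both were 0, 1 with DESeq2 and 0 to 2 with a library left out. For αMARCO over control, 15 calls in WT became 0 in the model of all 8 libraries, 32 without a fold limit (35.1% of all genes), 6 with a limit of 1 and 9 to 22 with a library left out, 9 being without WT αMARCO replicate 1, and in 3d/3d 0 became 0 to 25 (34.1% of all genes at 25). The difference between treatments gave 0 to 34 (36.4% of all genes at 34). The average over treatments, 1 call, gave 3 with DESeq2, 4 with no filter beyond 1 count and 0 to 8 with a library left out. The neighbors separated the same way in both numbered 12, and 13 with DESeq2's size factors.

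The differences between replicates correlated by 0.01 between the control groups and 0.135 between the αMARCO groups. Across treatment they correlated by −0.001 in WT and 0.111 in 3d/3d. Such values, with 2 libraries in a group, cannot show whether samples of the same number share a batch. The labels give only a number. With the replicate block 9 neighbors were called in control, 0 under αMARCO, 16 across treatment in WT, 0 in 3d/3d and 0 for the difference. The share of all genes called with the block is not given here, so these counts are not a result about the neighbors.

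Named genes changed sign only with a library left out, apart from Kmt5b at 0.00. In control the log2 fold change ran from −0.05 to 0.15 for Tcirg1, −0.49 to 0.06 for Chka, −0.18 to 0.00 for Kmt5b, −0.19 to 0.29 for Nudt8, −0.44 to 0.06 for Doc2g, −0.10 to 1.07 for Coro1b and −1.55 to 0.29 for Rps6kb2. Under αMARCO it ran from −0.78 to 0.06 for Mrpl21, −1.81 to 0.32 for Gstp1, −0.91 to 0.26 for Mrpl11 and −0.80 to 0.19 for Banf1, and averaged over treatments from −0.12 to 0.31, −0.20 to 0.88, −0.18 to 0.41 and −0.13 to 0.37. The cause was not tested. Of 389 values of named genes under alternatives, 317 kept their direction and side of the threshold.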
